A study of Rattus norvegicus with 43 samples.

Results

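Emilin1, Eln, Fbn1, Fbln5 and Lox encode proteins of the elastic fibre or an enzyme that cross-links it, and Lum, Dcn, Bgn and Fmod encode small leucine-rich proteoglycans that bind collagen fibrils. These 9 genes were followed in A7r5 cells, an established smooth muscle line from rat aorta, and all samples come from this 1 line. They were chosen by symbol, from probe sets that the platform annotation ties to 1 of these symbols only, and they make up 9 of 14217 genes named in this way and 12 of the 31099 probe sets on the array. The probe set of highest mean over the 43 arrays stands for each gene, and Eln, Fbn1 and Lox each have a second one. The cells grew in a custom-made DMEM with folic acid at 2.5 ng/ml (deficient), 10 ng/ml (sufficient) or 100 ng/ml (excess) for 7, 14 or 21 days, and no group was kept in any other medium. The 43 Affymetrix expression arrays fall into 9 groups of day by folic acid, with 4 arrays each for deficient and excess medium at day 7 and 5 for each other group. The design asks how the supply of folate acts on these cells over time. The labels do not say whether the arrays of a group came from separate cultures, so p-values cover the spread among these arrays alone, and it may be technical.

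Elastic fibres give the aortic wall its recoil. Smooth muscle cells secrete tropoelastin, the product of Eln, which fibulin-5 (Fbln5) helps to gather and place on microfibrils built of fibrillin-1 (Fbn1). Lysyl oxidase (Lox) then cross-links it, and emilin-1 (Emilin1) sits between the elastic core and the microfibrils, where it also binds pro-TGF-beta1 and limits its activation. Decorin (Dcn), biglycan (Bgn), lumican (Lum) and fibromodulin (Fmod) are proteins with leucine-rich repeats that coat collagen fibrils and help to set their width and spacing. Decorin and biglycan carry chondroitin or dermatan sulfate chains, and lumican and fibromodulin carry keratan sulfate chains.

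Values are on the log2 scale on which they were deposited, so a difference of 1 is a doubling of signal. The median of all probe sets lay between 3.66 and 3.72 on each array, and values ran from 0.84 to 15.02. All 12 smooth muscle markers listed for a check of the cell type, such as Acta2 and Tagln, passed a level of 4, which was also the limit of the filter on low values. Of the 43 arrays, 11 carry a serial number above 45 in their titles and stand outside the order of the groups. They include 3 of the 5 excess arrays at day 14 and 2 of the 5 at day 21, and whether they were run apart from the rest is not stated. The signal of the beta-actin control at its 3' end exceeded that at its 5' end by 1.40 to 2.80. This difference, which grows as RNA or its labelling is truncated, averaged 2.21 and 2.22 in excess medium at days 14 and 21 and 1.63 to 1.93 in the other 7 groups. The main differences of the members in excess medium are therefore given also with this difference in the model and without the arrays where it was above 2, while the lists of other genes were not fitted again in this way.

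A RefSeq table of the GRCr8 assembly held the sequence at the start of 4 of the 9 genes. The 150 bases before the start are shown for both elastic fibre genes that moved together in these arrays, Fbn1 and Fbln5, and for the proteoglycan genes that moved apart, Lum and Fmod. They are written 5' to 3' in the direction of the gene, and capitals mark a motif that was found. The window of Fbn1 lies at chr3:133203391-133203540 on the minus strand and that of Fbln5 at chr6:126742707-126742856 on the minus strand. The window of Lum lies at chr7:34245556-34245705 and that of Fmod at chr13:48045417-48045566, both on the plus strand.
Fbn1: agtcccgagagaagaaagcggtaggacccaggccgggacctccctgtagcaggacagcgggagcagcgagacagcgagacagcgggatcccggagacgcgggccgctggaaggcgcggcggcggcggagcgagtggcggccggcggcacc
Fbln5: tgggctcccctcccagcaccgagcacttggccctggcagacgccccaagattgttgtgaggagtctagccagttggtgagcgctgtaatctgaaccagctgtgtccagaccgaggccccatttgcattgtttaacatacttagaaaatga
Lum: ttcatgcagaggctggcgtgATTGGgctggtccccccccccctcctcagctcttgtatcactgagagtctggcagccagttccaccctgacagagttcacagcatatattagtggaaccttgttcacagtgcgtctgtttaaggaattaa
Fmod: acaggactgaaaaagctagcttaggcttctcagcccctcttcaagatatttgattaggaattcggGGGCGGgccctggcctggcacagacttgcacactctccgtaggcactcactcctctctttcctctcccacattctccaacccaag
Of these bases, 73.3% were G or C in the window of Fbn1, against 54.0% in Fbln5, 52.0% in Lum, 53.3% in Fmod and a median of 52.7% over all 33469 windows of this length in the table. The TATA box (letters TATAAA), the CCAAT box, the GC box (letters GGGCGG), the AP-1 motif (letters TGANTCA), the TEAD motif (letters GGAATG) and the CArG box, to which serum response factor binds in many smooth muscle genes, were searched on both strands. Lum held CCAAT on the opposite strand, read as ATTGG 130 to 126 bases before the start, as did 23.5% of all windows on either strand. Fmod held GGGCGG 85 to 80 bases before its start, as did 26.0% of all windows. None of the 6 motifs was present in the windows of Fbn1 and Fbln5.

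The 9 genes lay at very different levels. Fbn1, Lox and Bgn lay among the top of the named probe sets, with group means of 12.33 to 13.08, 13.51 to 13.69 and 12.10 to 12.67. Fmod ran from 10.64 to 12.02, Fbln5 from 10.36 to 11.15, Eln from 6.78 to 9.96 and Emilin1 from 4.22 to 6.67. Lum lay between 1.99 and 2.42 in all groups except excess medium at day 14, with 3.62, and at day 21, with 5.30. Dcn lay between 1.95 and 2.48 on every array, which is below the limit of 4, and it entered no test. Lum passed the limit on 6 arrays, all in excess medium, so it entered the tests through the group in which it was high, and counts are also given without it. The other 7 genes passed on 42 or 43 of the 43 arrays.

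**Figure D1:**
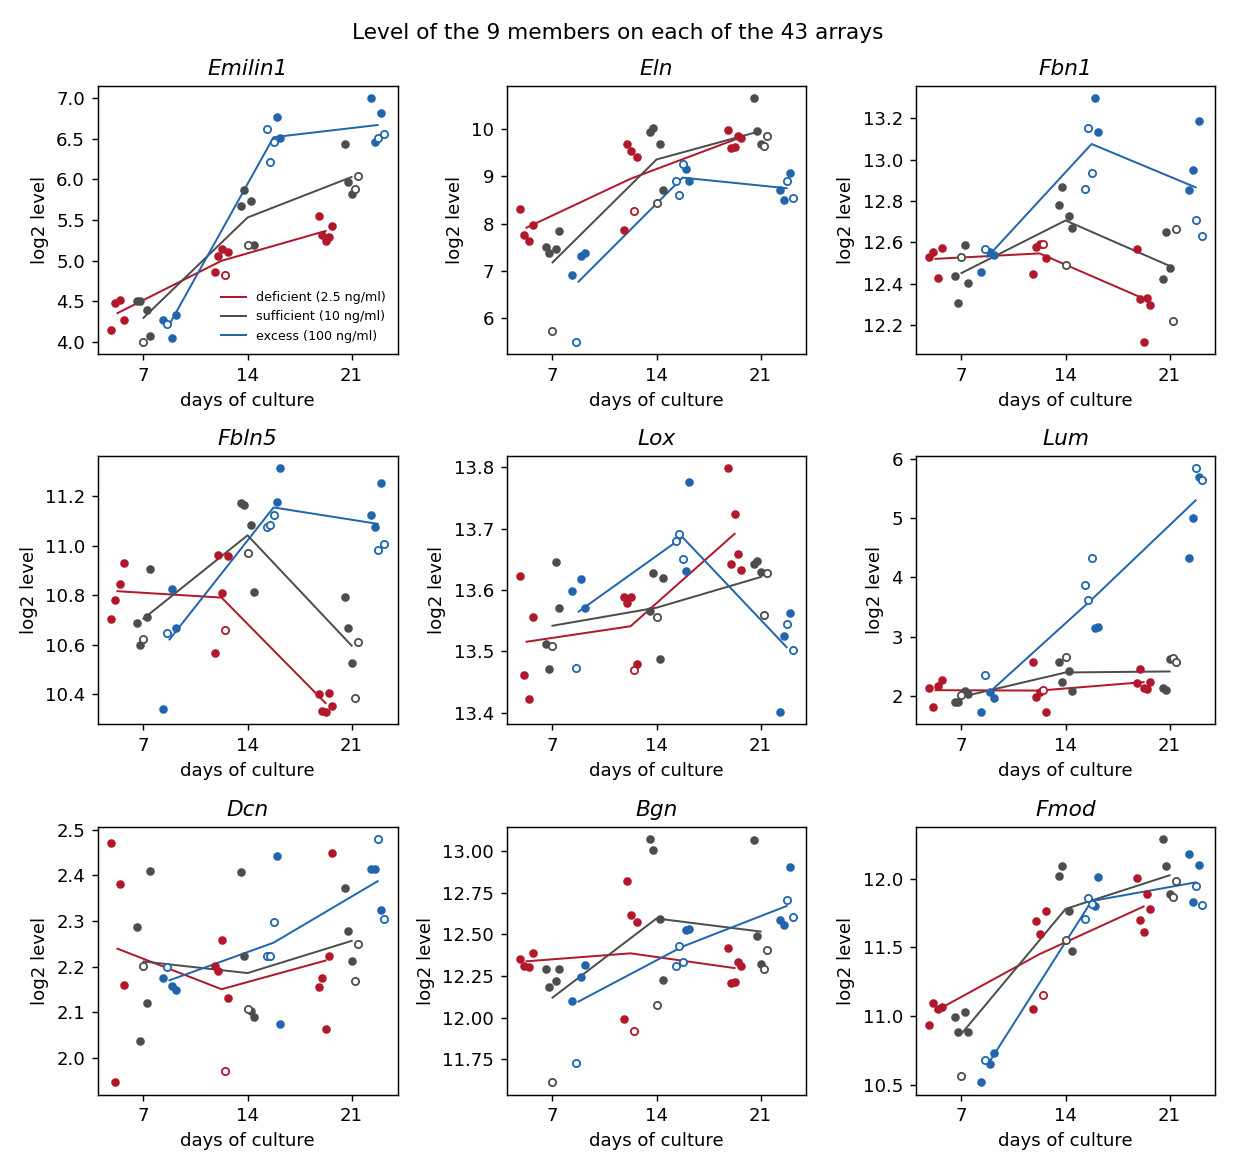
Log2 level of each of the 9 genes (vertical axis, on its own scale in each panel) against the days of culture, with 1 point per array coloured by medium, lines through the group means and open circles for the 11 arrays of serials above 45. Emilin1 and Lum separated excess medium from the rest at days 14 and 21, Eln and Fmod rose from day 7 in all 3 media, and Dcn stayed between 1.95 and 2.48.

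How each gene varied was first described by splitting the sum of squares over all arrays into day, medium, their combination and the spread within groups. Day accounted for 80.2% in Fmod, 66.7% in Eln and 66.1% in Emilin1. Medium held the largest share in Lum (43.8%) and Fbn1 (39.5%), while in Fbln5 the combination of both was the largest (30.8%). In Bgn 63.7% lay within the groups, and in Lox the combination (46.6%) and the spread within groups (42.3%) made up most of a small range, since its group means spanned only 0.19. Fmod, Eln and Emilin1 were thus genes of time, Lum and Fbn1 genes of medium, and Bgn varied mostly between arrays of the same group.

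In sufficient medium elastin rose most with time on its main probe set. Eln read 7.51, 7.38, 7.46, 7.84 and 5.72 at day 7, 9.94, 10.03, 9.68, 8.45 and 8.70 at day 14, and 10.66, 9.64, 9.96, 9.69 and 9.85 at day 21. The days 7 and 14 did not overlap, nor did days 7 and 21, and the single low array of day 7 is one of the serials above 45. The rise was 2.18 ± 0.35 (SE) from day 7 to 14 (adjusted p = 2.48e-06) and 2.78 ± 0.35, or 6.87-fold, from day 7 to 21 (adjusted p = 8.22e-09). Its second probe set, which stayed near the limit of the filter, rose by 0.40 ± 0.12 from day 7 to 21 (adjusted p = 0.00367), and the mean of both sets rose by 1.59, less than Emilin1 did over this span (1.73).

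Emilin1 and Fmod climbed alongside it. Emilin1 read 4.51, 4.50, 4.40, 4.07 and 4.00 at day 7 in sufficient medium, 5.68, 5.87, 5.73, 5.19 and 5.19 at day 14, and 6.44, 5.88, 5.97, 5.82 and 6.04 at day 21. It rose by 1.24 ± 0.13 in the first week of this span (adjusted p = 4.07e-10) and by a further 0.50 ± 0.13 in the second (adjusted p = 0.00287), when the lowest array of day 21 and the highest of day 14 overlapped narrowly. Fmod read 10.99, 10.88, 11.03, 10.89 and 10.56 at day 7 and 12.02, 12.09, 11.76, 11.55 and 11.47 at day 14, with no overlap. Its rise was 0.91 ± 0.12 to day 14 (adjusted p = 5.66e-08) and 1.15 ± 0.12 to day 21 (adjusted p = 8.9e-11). From day 14 to 21 the change in Fmod did not pass the threshold.

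Fbn1 and Fbln5 turned at day 14. Fbln5 rose by 0.34 ± 0.09 from day 7 to 14 (adjusted p = 0.00138) and fell by 0.45 ± 0.09 from day 14 to 21 (adjusted p = 8.09e-05). In sufficient medium it read 11.17, 11.17, 11.08, 10.97 and 10.81 at day 14 and 10.79, 10.38, 10.67, 10.53 and 10.61 at day 21, which did not overlap. Fbn1 rose by 0.25 ± 0.09 to day 14 (adjusted p = 0.0221), while its change to day 21 did not pass on the main probe set and was a fall of 0.51 ± 0.14 on the second (adjusted p = 0.00575). The call of the rise to day 14 on the main probe set of Fbn1 was lost when 1 array was left out, namely replicate 2 of either day. It was also lost when the beta-actin difference entered the model and without the arrays where that difference was above 2. The second probe set of Fbn1 rose by 0.58 ± 0.14 to day 14 (adjusted p = 0.00104). Bgn rose by 0.47 ± 0.17 to day 14 (adjusted p = 0.0187) and stood 0.40 ± 0.17 above day 7 at day 21 (adjusted p = 0.0366). Without the low array of day 7, replicate 6 at 11.61, these became 0.35 (adjusted p = 0.0894) and 0.27 (adjusted p = 0.159), and without replicate 1 of day 21 the second was 0.26 (adjusted p = 0.173). The call at day 14 was also lost without replicate 1 (adjusted p = 0.0882) or replicate 2 (adjusted p = 0.0784) of day 14, and that at day 21 without replicate 3 of day 21 (adjusted p = 0.05).

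Counted together, 6 of the 8 genes tested rose from day 7 to 14 in sufficient medium and 0 fell, beside 44.6% of all 9095 genes tested that changed in either direction. Their median difference was 0.44, against -0.03 over all genes. From day 14 to 21, 1 rose and 1 fell (34.6% of all genes changed), and from day 7 to 21, 4 rose (62.6% of all genes), with a median of 0.41. Lum and the main probe set of Lox passed in none of these 3 comparisons. The second probe set of Lox rose by 0.27 ± 0.05 from day 7 to 14 (adjusted p = 2.78e-05), while the main one differed by less than its error.

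In deficient medium Emilin1, Eln and Fmod also rose with time. Emilin1 went from 4.14, 4.48, 4.52 and 4.27 at day 7 to 4.86, 5.05, 5.14, 4.83 and 5.11 at day 14 and 5.55, 5.31, 5.24, 5.29 and 5.43 at day 21, with no overlap between any pair of days. Its rise from day 7 to 21 was 1.01 ± 0.14 (adjusted p = 5.44e-08), that of Eln 1.86 ± 0.37 (adjusted p = 3.6e-05) and that of Fmod 0.76 ± 0.13 (adjusted p = 2.17e-06). Fbln5 fell by 0.45 ± 0.09 over this span (adjusted p = 3.98e-05), from 10.71, 10.78, 10.85 and 10.93 to a narrow 10.40, 10.33, 10.33, 10.41 and 10.35. Lox rose by 0.18 ± 0.05 (adjusted p = 0.00275) and its second probe set by 0.31 ± 0.05 (adjusted p = 4.3e-06). Over all, 3 of 8 rose from day 7 to 14 (45.6% of all genes changed), 3 rose and 1 fell from day 14 to 21 (38.8%), and 4 rose and 1 fell from day 7 to 21 (64.8%). The rise of Eln to day 14, 1.03 ± 0.37 (adjusted p = 0.0207), was lost on leaving out any of 5 single arrays, with the largest adjusted p, 0.0686, without replicate 2 of day 14. From day 14 to 21 the calls of Emilin1 (0.37 ± 0.13, adjusted p = 0.024) and Fmod (0.35 ± 0.12, adjusted p = 0.0197) were each lost without replicate 1 or 5 of day 14 or replicate 2 of day 21, with adjusted p of 0.0558 to 0.0681 for Emilin1 and 0.0645 to 0.0965 for Fmod.

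In excess medium Lum was among the genes that rose. Emilin1 went from 4.27, 4.05, 4.33 and 4.22 at day 7 to 6.63, 6.47, 6.77, 6.51 and 6.22 at day 14, a rise of 2.30 ± 0.14, or 4.94-fold (adjusted p = 1.16e-16), and it did not change further past the threshold. Its day 7 values lay close to the limit of 4, where background correction bears on the value, so the size of this rise depends on it. Lum went from 1.74, 2.07, 1.97 and 2.36 to 3.86, 4.32, 3.15, 3.17 and 3.62 at day 14 and 4.33, 5.00, 5.84, 5.68 and 5.63 at day 21. It rose at each step, by 1.59 ± 0.22 (adjusted p = 1.43e-07) and then 1.67 ± 0.20 (adjusted p = 3.12e-08), and the days did not overlap, although the highest array of day 14 and the lowest of day 21 were close. Lum was tested because it was high in this medium, so these p-values are no independent support. Its day 7 values lay near the floor, and its mean at day 14 (3.62) was still below the limit of 4. Eln rose by 2.20 ± 0.37 to day 14 (adjusted p = 6.1e-06) and held that level, with 8.98 ± 0.25 (SD, n = 5) at day 14 and 8.75 ± 0.24 at day 21. Lox moved the other way in the second week, by -0.18 ± 0.05 (adjusted p = 0.00482), and its second probe set by -0.30 ± 0.05 (adjusted p = 1.21e-05). The call of the main set was lost on serials up to 45 alone (adjusted p = 0.0585) and with only the groups compared in the model (adjusted p = 0.0799). From day 7 to 14, 7 of 8 rose (48.2% of all genes changed; 6 of 7 without Lum), from day 14 to 21, 1 rose, which was Lum, and 1 fell (23.2%), and from day 7 to 21, 7 of 8 rose (60%; 6 of 7 without Lum), with a median of 0.95 against 0.05 over all genes. Without Lum that median was 0.57, the value of Bgn. With the beta-actin difference in the model the rises to day 14 were 2.20 in Emilin1, 1.38 in Lum and 1.86 in Eln, and without the arrays where it was above 2 they were 2.15, 1.36 and 1.99. For the second step of Lum these values were 1.66 and 1.27. The rise of Lox to day 14 was small on the main probe set, 0.12 ± 0.05 (adjusted p = 0.0465). Its call was lost in 14 of 23 alternative settings, among them without replicate 1, 4 or 6 of day 7 or replicate 1, 5 or 6 of day 14 (adjusted p up to 0.17). The second probe set of Lox rose by 0.35 ± 0.05 to day 14 (adjusted p = 1.39e-06). Bgn rose by 0.57 ± 0.18 from day 7 to 21 (adjusted p = 0.00526), which became 0.47 (adjusted p = 0.112) without the 8 arrays whose beta-actin difference was above 2.

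Deficient medium was compared with sufficient medium at each day. Emilin1 was the member that passed the threshold, at day 21, when it stood lower in deficient medium by 0.67 ± 0.13, or 1.59-fold (adjusted p = 0.00519). The deficient arrays read 5.55, 5.31, 5.24, 5.29 and 5.43 and the sufficient ones 6.44, 5.88, 5.97, 5.82 and 6.04, so every deficient array lay below every sufficient one. At day 14 the deficient arrays, at 4.86, 5.05, 5.14, 4.83 and 5.11, also lay below the sufficient ones, at 5.68, 5.87, 5.73, 5.19 and 5.19. That difference of -0.53 ± 0.13 had an adjusted p of 0.0765. The adjusted p was 0.0431 when the serials above 45 entered the model, 0.00435 with array weights and 0.0418 without sufficient replicate 5. It went the other way, to 0.327, with only the groups compared in the model. At day 7 the groups overlapped and differed by 0.06 ± 0.14. In a bulk extract, fewer cells that express a gene and less of its RNA per cell cannot be told apart, which holds for each comparison here.

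The other members did not pass in deficient medium at any day. At day 7, 0 of 8 passed, and so did 0% of all 9095 genes by limma, although 551 of them had an unadjusted p below 0.05. At day 14, 0 of 8 passed, beside 0.088% of all genes, and at day 21, 1 of 8 passed, beside 0.781%. Fbln5 was lower by 0.25 ± 0.09 at day 14 (adjusted p = 0.32) and by 0.23 ± 0.09 at day 21 (adjusted p = 0.213, and 0.0462 with serials above 45 in the model), where 10.40, 10.33, 10.33, 10.41 and 10.35 overlapped with 10.79, 10.38, 10.67, 10.53 and 10.61 through 1 sufficient array. Eln differed by 0.73 ± 0.37 at day 7, -0.41 ± 0.35 at day 14 and -0.18 ± 0.35 at day 21, and the 95% interval at day 21, from -0.89 to 0.52, leaves room for a change of either sign. Leaving out 1 array moved these values to between 0.37 (without sufficient replicate 6) and 0.90 at day 7, -0.64 and -0.14 (without deficient replicate 1) at day 14, and -0.26 and -0.0088 (without sufficient replicate 1) at day 21. The median over the 8 genes was -0.28 at day 14 and -0.20 at day 21, against -0.02 and -0.01 over all genes. Lum stayed at 2.22, 2.45, 2.14, 2.12 and 2.24 in deficient medium at day 21, within the range of values below the limit.

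Excess medium was then compared with the same sufficient arrays. At day 7 none of the 8 genes passed, beside 2.37% of all genes, and the differences lay between -0.41 (Eln) and 0.08 (Fbn1). At day 14, 3 of the 8 were higher and 0 lower, beside 41.2% of all genes that changed in either direction, and without Lum 2 of 7. At day 21, 4 were higher and 1 was lower, beside 43.7%, and without Lum 3 and 1 of 7. At day 14 the share of members called is near that of all genes. At day 21 it is higher, but with 8 genes nothing is read from it, and the results are the genes and the sizes below. The median over the members was 0.11 at day 14 and 0.27 at day 21, against 0.01 and 0.03 over all genes. Without Lum it was 0.11 and 0.15, the values of Fbln5 and Bgn at these days.

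Lumican is described first, although it was tested because it was high in this medium, so its p-values are no independent support. At day 21 the excess arrays read 4.33, 5.00, 5.84, 5.68 and 5.63 and the sufficient ones 2.14, 2.65, 2.10, 2.62 and 2.57. All 5 excess arrays lay above all sufficient ones, by 2.88 ± 0.20 on average (adjusted p = 1.19e-14). At day 14 the readings were 3.86, 4.32, 3.15, 3.17 and 3.62 against 2.58, 2.23, 2.42, 2.66 and 2.09, again with no overlap, and the difference was 1.23 ± 0.20 (adjusted p = 8.43e-06). The sufficient arrays lie near the floor of the table, where background correction sets the value, so the size of the difference depends on it and no fold is given. The mean of the excess arrays at day 14 was itself below the limit of 4. With the beta-actin difference in the model the day 21 value was 2.66, without the 8 arrays where it was above 2 (3 each in excess medium at days 14 and 21 and 2 in sufficient medium at day 7) it was 2.25, and on serials up to 45 alone it was 2.72, and the call held each time. On serials up to 45 alone the day 14 value was 0.83 (adjusted p = 0.00989).

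Emilin1 was higher in excess medium at both later days. At day 14 it read 6.63, 6.47, 6.77, 6.51 and 6.22 in excess against 5.68, 5.87, 5.73, 5.19 and 5.19 in sufficient medium, a difference of 0.99 ± 0.13, or 1.99-fold (adjusted p = 1.42e-07). At day 21 it read 7.00, 6.46, 6.51, 6.82 and 6.56 against 6.44, 5.88, 5.97, 5.82 and 6.04, a difference of 0.64 ± 0.13 (adjusted p = 0.00012). The groups did not overlap at either day, although the highest sufficient array of day 21 nearly reached the lowest excess array. The order of the 3 media at days 14 and 21 was deficient, sufficient, excess, and no array of one medium reached the range of the next. With the beta-actin difference in the model the values were 0.88 at day 14 and 0.54 at day 21, and without the arrays above 2 they were 0.84 and 0.70.

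Fbn1 and Fbln5 were higher too, by less. Fbn1 read 12.86, 12.94, 13.30, 13.13 and 13.15 in excess against 12.78, 12.87, 12.73, 12.49 and 12.67 in sufficient medium at day 14, with a narrow overlap, and the difference was 0.37 ± 0.09 (adjusted p = 0.00141). At day 21 the difference was 0.38 ± 0.09 (adjusted p = 0.000834), or 1.30-fold, and the arrays overlapped. With the beta-actin difference in the model the values were 0.44 and 0.45, and without the arrays above 2 they were 0.44 and 0.41, past the threshold each time. Its second probe set differed by -0.01 ± 0.14 at day 14 and 0.41 ± 0.14 at day 21 (adjusted p = 0.021), so the mean of both sets fell to 0.18 at day 14 (adjusted p = 0.2). Fbln5 differed by 0.11 ± 0.09 at day 14 (adjusted p = 0.298). At day 21 it read 11.12, 11.07, 10.98, 11.25 and 11.01 in excess and 10.79, 10.38, 10.67, 10.53 and 10.61 in sufficient medium, with no overlap, and it was higher by 0.49 ± 0.09, or 1.41-fold (adjusted p = 1.08e-05). This was 0.54 with the beta-actin difference in the model and 0.50 without the arrays above 2. Fbln5 had fallen between days 14 and 21 in the other 2 media, while in excess it stood at 11.15 ± 0.10 (SD, n = 5) and 11.09 ± 0.11.

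Elastin went the opposite way at day 21. It read 8.72, 8.51, 8.90, 9.07 and 8.55 in excess and 10.66, 9.64, 9.96, 9.69 and 9.85 in sufficient medium, so each excess array lay below each sufficient one. The difference was -1.21 ± 0.35, or 2.31-fold lower (adjusted p = 0.00468), with a 95% interval from -1.91 to -0.51. At day 14 the excess arrays, at 8.91, 9.27, 9.16, 8.91 and 8.62, lay inside the range of the sufficient ones, 8.45 to 10.03, and differed by -0.38 ± 0.35 (adjusted p = 0.393). The day 21 difference was -1.55 with the beta-actin difference in the model, -1.35 without the arrays above 2 (adjusted p = 0.0444), -1.34 on serials up to 45 alone and -1.19 without serials 53 to 56 (adjusted p = 0.0265), which are all excess arrays. The second probe set differed by -0.25 ± 0.12 (adjusted p = 0.0829), and the mean of both sets by -0.73, still past the threshold.

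Lysyl oxidase, biglycan and fibromodulin did not pass on their main probe sets. Lox differed by 0.11 ± 0.05 at day 14 (adjusted p = 0.0519) and by -0.11 ± 0.05 at day 21 (adjusted p = 0.0505), and its second probe set passed in both, at 0.16 ± 0.05 (adjusted p = 0.013) and -0.17 ± 0.05 (adjusted p = 0.00572). Both sets were thus higher at day 14 and lower at day 21, by small amounts. The main set passed at day 14 in 8 of 24 alternative settings and at day 21 in 7 of 24. It did not pass with the beta-actin difference in the model (0.13 and -0.10) or without the arrays above 2 (0.16 and -0.16). Bgn differed by 0.15 at day 21 (95% interval -0.18 to 0.49) and Fmod by -0.05 (-0.29 to 0.19).

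**Figure D2:**
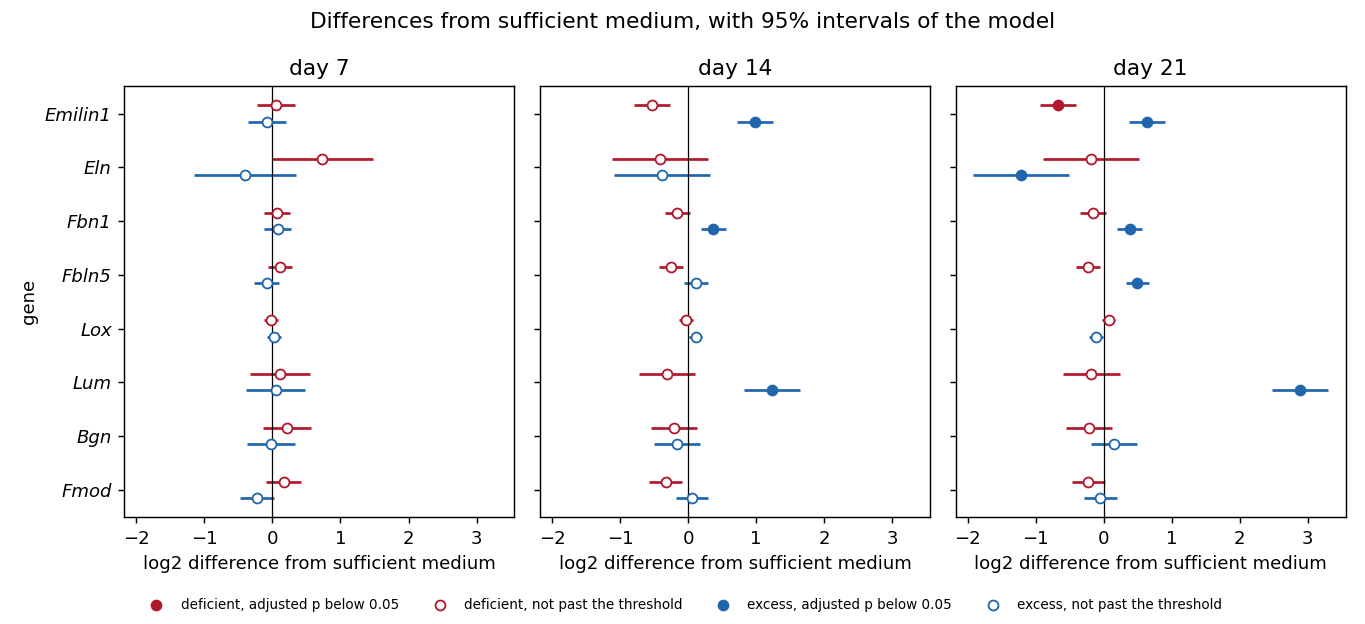
Difference from sufficient medium (horizontal axis, log2) for the 8 genes tested, in deficient (red) and excess (blue) medium at days 7, 14 and 21, with bars for the 95% interval and filled points for an adjusted p below 0.05. In deficient medium Emilin1 at day 21 (-0.67) was called, and in excess medium Lum reached 2.88 and Eln -1.21 at day 21.

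Deficient and excess medium, the ends of the dose range, were compared directly. At day 7 none of the 8 passed (5% of all genes), with Eln at 1.14 ± 0.39 (adjusted p = 0.077) and Fmod at 0.39 ± 0.13 (adjusted p = 0.0765) closest to the threshold. At day 14, 6 of 8 were lower in deficient medium and 0 higher (40.3% of all genes changed; 5 of 7 without Lum), with a median of -0.38 against -0.03 over all genes. Without Lum that median was -0.36, the value of Fbln5. Emilin1 was lower by 1.52 ± 0.13, Lum by 1.53 ± 0.20, Fbn1 by 0.53 ± 0.09, Fmod by 0.39 ± 0.12, Fbln5 by 0.36 ± 0.09 and Lox by 0.14 ± 0.05. The second probe set of Fbn1 was lower by 0.27 ± 0.14 and did not pass (adjusted p = 0.134), while that of Lox was lower by 0.21 ± 0.05 (adjusted p = 0.00104). The call of Fmod was lost without deficient replicate 1 (adjusted p = 0.0512), and those of Fmod and Lox on serials up to 45 alone (adjusted p = 0.078 and 0.125). At day 21, 4 were lower and 2 higher (50.9%; 3 and 2 of 7 without Lum). Eln was higher in deficient medium by 1.03 ± 0.35 (adjusted p = 0.0131), with 9.98, 9.60, 9.63, 9.86 and 9.82 against 8.72, 8.51, 8.90, 9.07 and 8.55, and Lox by 0.18 ± 0.05 (adjusted p = 0.00143). The groups of Eln did not overlap, yet the call was lost without serials 53 to 56 (adjusted p = 0.0511) and without the arrays of a beta-actin difference above 2 (adjusted p = 0.0711). The second probe set of Eln differed by 0.22 ± 0.12 at day 21 and did not pass (adjusted p = 0.12), while those of Lox and Fbn1 passed in the direction of their main sets. These comparisons share their arrays with those against sufficient medium and are no separate evidence.

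Whether a folate effect differed between day 21 and day 7 was tested as a difference of differences. For excess medium, 3 of 8 passed, each upward (24.5% of all genes passed), and without Lum 2 of 7. The excess effect grew by 2.83 ± 0.30 in Lum (adjusted p = 1.91e-09), by 0.72 ± 0.19 in Emilin1 (adjusted p = 0.00471) and by 0.58 ± 0.12 in Fbln5 (adjusted p = 6e-04). Lum was tested because it was high in excess medium, so its p-value is no independent support here either. The value of Emilin1 became 0.64 (adjusted p = 0.0684) without the arrays of a beta-actin difference above 2. In Eln it was -0.80 ± 0.51 (adjusted p = 0.26), so a change of the excess effect with time was not shown. For deficient medium 0 of 8 passed (0.044% of all genes, while 984 had an unadjusted p below 0.05), with Emilin1 at -0.72 ± 0.19 (adjusted p = 0.159).

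The proteoglycan genes were next set beside their neighbours on the chromosome. In the RefSeq table Dcn, Lum, Kera and Epyc follow each other, as do Optc, Prelp and Fmod, and Kera and Epyc, which encode keratocan and epiphycan, have no named probe set on the array. Dcn read 2.41, 2.41, 2.48, 2.32 and 2.30 in excess medium at day 21, when Lum beside it read 4.33 to 5.84, but Dcn lay below the limit on all 43 arrays and no change can be read from it. Optc, which encodes opticin, was entered in the list of relatives under a wrong symbol (Opt) that matched nothing, and it was not analysed here. Prelp encodes another leucine-rich protein that anchors basement membranes to collagen. Prelp stood at 6.67 ± 0.24 (SD, n = 5) in excess and 7.72 ± 0.07 in sufficient medium at day 21, a difference of -1.05 ± 0.16 (adjusted p = 6.79e-07), and it was lower by 1.06 ± 0.16 at day 14. Fmod beside it differed by 0.06 and -0.05 at these days. The difference between these neighbours was not tested.

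**Figure D3:**
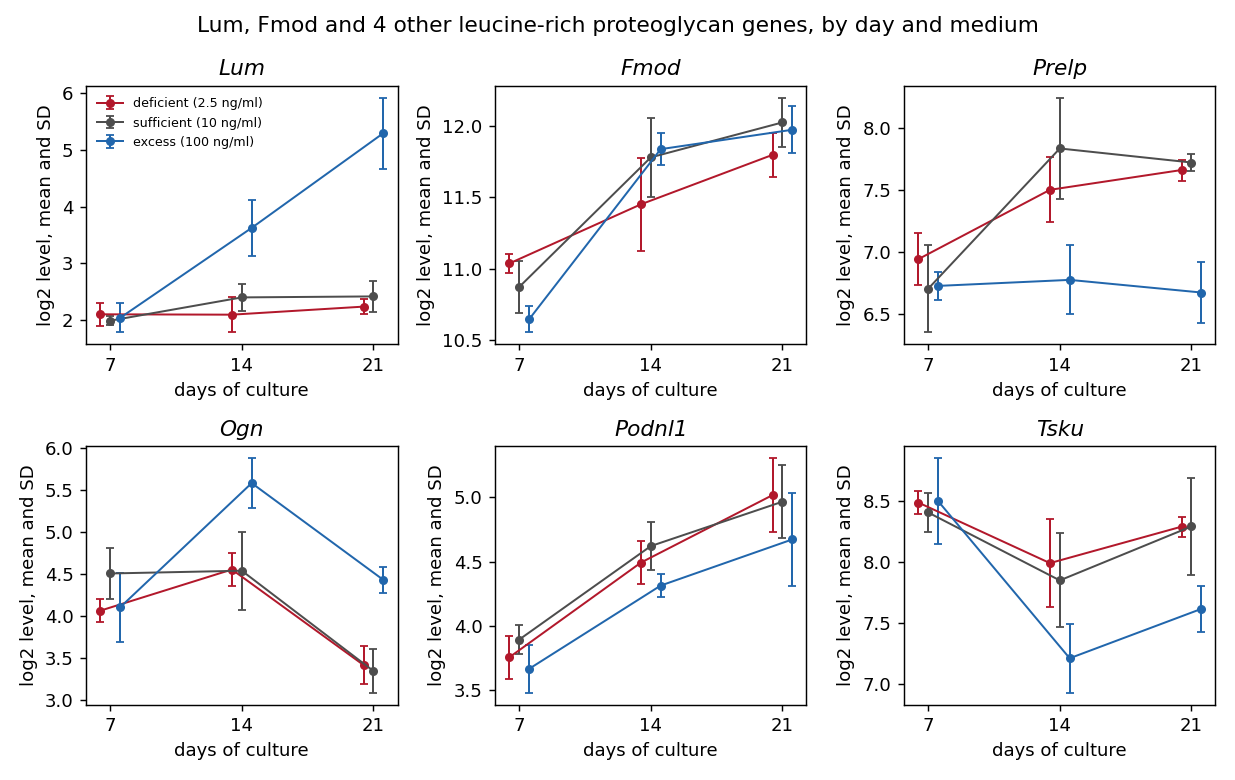
Group mean and SD (log2 level, vertical axis, own scale in each panel) of Lum, Fmod and 4 other leucine-rich proteoglycan genes that passed the filter, against the days of culture, coloured by medium (4 or 5 arrays per point). In excess medium at day 21 Lum (5.30) and Ogn (4.43) lay above sufficient medium, Prelp (6.67) and Tsku (7.61) below it, and Fmod (11.97) close to it.

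Of 13 other symbols listed for the leucine-rich proteoglycan family and its relatives, Opt among them, 4 passed the filter. In excess medium 1 was higher and 2 were lower at both later days, beside 41.2% and 43.7% of all genes that changed at days 14 and 21, with a median of -0.48 at day 21. Ogn, which encodes osteoglycin, was higher by 1.08 ± 0.18 at day 21 (adjusted p = 3.68e-06), and Tsku (tsukushi) was lower by 0.68 ± 0.17 (adjusted p = 0.00151). Over time in sufficient medium Ogn fell from 4.51 ± 0.30 at day 7 to 3.35 ± 0.26 at day 21, while Podnl1 rose by 1.07 ± 0.14 and Prelp by 1.02 ± 0.16. The day 21 mean of Ogn in sufficient medium lay below the limit of 4, where background correction bears on the value. The sizes of its fall and of its difference in excess medium depend on that correction. In deficient medium 0 of these 4 relatives passed at any day, beside 0%, 0.088% and 0.781% of all genes at days 7, 14 and 21. Of 18 genes for the synthesis of the sulfated chains, 6 were higher and 4 lower in excess medium at day 14 and 2 higher and 4 lower at day 21, when Chst12, a chondroitin sulfotransferase, was lower by 1.12 ± 0.19 (adjusted p = 8.84e-06).

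Of 11 other components of elastic fibres and microfibrils that were tested, 1 was higher and 6 were lower in excess medium at day 21, with a median of -0.31 against 0.03 over all genes. Over all 9095 genes 2223 were higher and 1751 lower, or 43.7% together. Fbln2 (fibulin-2) was lower by 1.13 ± 0.15 (adjusted p = 1.06e-07), while its relative Fbln5 was higher, as given above. Adamts10, a protease tied to microfibril assembly, was higher by 1.11 ± 0.17 (adjusted p = 1.44e-06), and the chaperone clusterin (Clu) was lower by 0.57 ± 0.10. Among 10 relatives and partners of lysyl oxidase, 1 was higher and 3 were lower. Loxl1, the family member that acts on elastin, was higher by 0.39 ± 0.06 (adjusted p = 4.61e-07) and Loxl2 lower by 0.43 ± 0.15. Over time in sufficient medium 5 of the 11 fibre genes rose and 5 fell from day 7 to 21, beside 62.6% of all genes that changed.

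Of 9 genes of the fibrillar collagens and their associates, which the proteoglycans coat, all fell from day 14 to 21 in sufficient medium, with a median of -0.54, beside 34.6% of all genes that changed. In deficient medium 7 of the 9 fell (38.8% of all genes changed) and in excess medium 5 (23.2%). In excess medium at day 21, 2 of 9 were higher and 1 was lower than in sufficient medium, beside 43.7% of all genes that changed. Col3a1 was higher by 0.99 ± 0.11 (adjusted p = 3.13e-09), with no overlap. Among TGF-beta ligands, latency proteins and receptors, 1 of 9 was higher and 5 were lower in excess medium at day 21, beside the same 43.7%. Their median was -0.51, against 0.03 over all genes. Ltbp2, a microfibril protein of the latency family, was lower by 1.13 ± 0.14 (adjusted p = 2.78e-08), Tgfb3 by 0.89 ± 0.06 (adjusted p = 1.2e-14) and Tgfb2 by 0.62 ± 0.09.

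Of 9 enzymes that cleave elastin or proteoglycans and their inhibitors, 7 rose and 0 fell from day 7 to 21 in sufficient medium, with a median of 0.96 against -0.02 over all genes, of which 62.6% changed. Mmp2, a gelatinase that also cleaves elastin, rose by 2.04 ± 0.15 (adjusted p = 5.91e-15) and Slpi, an inhibitor of elastase, by 1.90 ± 0.15 (adjusted p = 1.27e-13). In excess medium at day 21 both were higher again, by 0.91 ± 0.15 and 1.13 ± 0.15, while 6 of the 9 were lower, among them Adamts1 by 0.74 ± 0.08. Over all genes 43.7% changed in that comparison. Of 8 genes of the elastin receptor and of integrins that bind these fibres, 4 rose and 0 fell over time, and Itga8 rose by 2.45 ± 0.12 (adjusted p = 2.34e-20). In excess medium at day 21 Itga8 was lower by 0.78 ± 0.12 (adjusted p = 1.05e-06). In deficient medium 0 genes of these 8 lists of the pathway passed at any day, beside 0%, 0.088% and 0.781% of all genes at days 7, 14 and 21. With shares this low, nothing is read from these counts.

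Markers of other cell types were read beside the excess results, since Lum and Dcn also serve as fibroblast markers. Of 10 other fibroblast markers, 5 reached 4 in some group (Pdgfrb, Thy1, Pdpn, S100a4 and Col14a1), while Pdgfra, Fap, Dpt, Mfap4 and Tcf21 stayed between 2.31 and 2.84 in every group mean. The summed level of the list ran from 14.090 to 14.252 in excess medium at day 21, from 13.824 to 14.103 in sufficient and from 13.759 to 13.778 in deficient medium, and 3 of the 5 tested were higher in excess and 1 lower. S100a4 was the highest gene of the list and weighs most in this sum, with means of 13.627 in excess, 13.304 in sufficient and 13.125 in deficient medium. The summed level of the 12 smooth muscle markers ran from 16.11 to 16.18 in excess, 16.36 to 16.53 in sufficient and 16.40 to 16.43 in deficient medium, and 7 of the 12 were lower in excess. Of endothelial, macrophage and chondrocyte or osteoblast markers 1 each entered the tests, and in excess medium at day 21 these were not called, higher and lower. Of 5 skeletal muscle markers tested, 1 was higher and 3 were lower. These counts stand beside 2223 genes higher and 1751 lower of all 9095, or 43.7% together. The part of the shifts in markers in the values of Lum, Emilin1, Fbn1, Fbln5 and Eln was not tested.

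The spread between arrays of one group was shared by several members. Over the 43 deviations from the group means, Eln and Bgn correlated at r = 0.91, Bgn and Fmod at 0.83 and Eln and Fmod at 0.71, as a description over arrays that share extraction and labelling. The first component of the variation within groups, with 27.7% of it over all genes, ran along Bgn (r = 0.95), Eln (0.93), Fmod (0.80) and Emilin1 (0.71), and hardly along Lum (-0.27). In the 11 arrays of serials above 45, Eln lay on average 0.45 and Bgn 0.22 below the group mean, each in 9 of 11 arrays, while Lum lay 0.26 above it and below it in 1 of 11. With serials above 45 in the model, the differences of excess from sufficient medium at day 21 were -1.21 for Eln and 2.88 for Lum, since each group holds 2 such arrays. At day 14, where the groups hold 3 and 1, that of Lum was 1.06 and that of Eln -0.09.

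**Figure D4:**
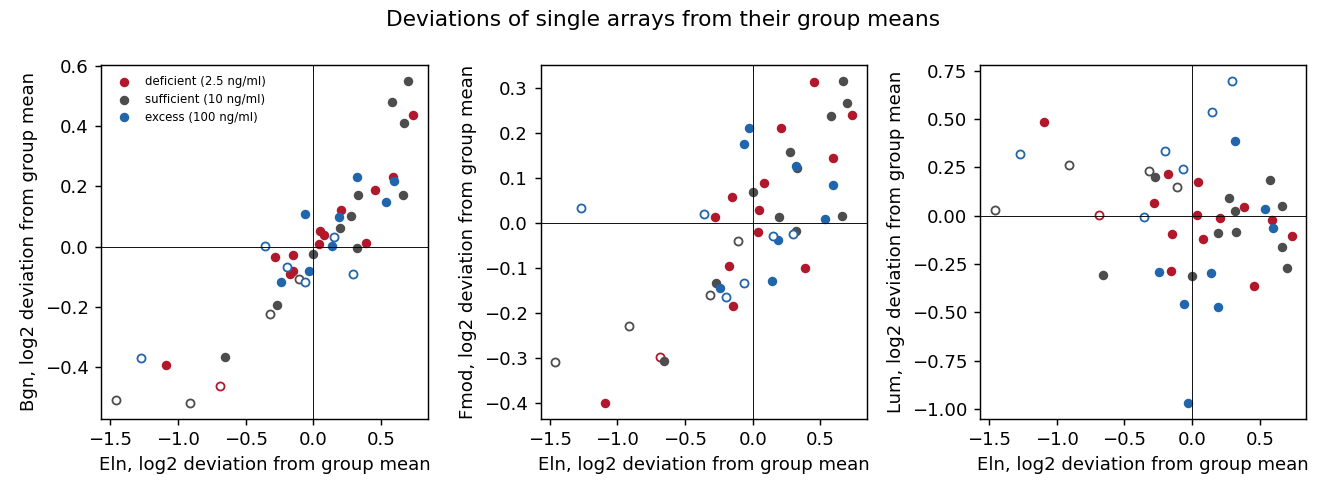
Deviation of Bgn, Fmod and Lum (vertical axes, log2) from the mean of their group against that of Eln (horizontal axis, log2) on each of the 43 arrays, with open circles for serials above 45. Bgn and Fmod followed Eln (r = 0.91 and 0.71), and Lum did not (r = -0.19).

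Over the 9 group means the members fell into sets. Fbn1 and Fbln5 had r = 0.91, Eln and Fmod 0.92 and Emilin1 and Fmod 0.91, while Eln and Fbln5 had 0.01, although both take part in the same fibre. For each member the 2 other genes with the most similar pattern over the 9 means are named as a description. For Eln these were Fblim1 (r = 0.99 over 9 means, 0.89 over 43 arrays) and Dmpk (0.99 and 0.96), for Emilin1 Tet2 (0.98 and 0.89) and Ppm1k (0.98 and 0.75), and for Fbln5 Cox14 (0.97 and 0.43) and Col3a1 (0.96 and 0.93). Lum was most like Kgd4 (0.99 and 0.73) and Plekha5 (0.98 and 0.91), and Fbn1 like Invs (0.97 and 0.67) and Slx4ip (0.96 and 0.68). Fmod was most like Tmem203 (0.99 and 0.62) and Kifap3 (0.99 and 0.73), Bgn like Eml3 (0.94 and 0.72) and Trappc9 (0.94 and 0.72), and Lox like Mbnl2 (0.91 and 0.41) and Ltbp1 (0.89 and 0.75). For Cox14 and Mbnl2 the r over arrays was far below that over means, and the correlation within groups was not computed.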

How the data were processed

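Total RNA of 43 samples of A7r5 cells was labelled with a 3' expression kit and hybridised to Affymetrix rat arrays, per the labels' protocols. The deposited table holds log2 values of 31099 probe sets, which the authors made with GCRMA, per the submitters' processing notes. This method corrects background by probe sequence, normalizes by quantiles and summarizes probe sets, so low values depend on its background model. Limma is named there too, and versions are not given in the sources used here. No scanner files were used here, and the number of arrays limits the precision. Replicate arrays correlated at 0.9912 to 0.998, and 0 pairs were identical.

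Groups were read from the titles. The platform annotation gave the gene names (20832 had 1 symbol, 436 several and 9831 none), and symbols were checked through Entrez identifiers in the RefSeq table, where 20764 matched. The 57 control probe sets were left out. Genes above log2 4 on at least 4 arrays entered, each by its probe set of highest mean, which left 9095 of 14217. One model of the 9 group means was fitted to all arrays with limma 3.58.1 in R 4.3.3 (34 residual and 4.12 prior degrees of freedom). All tests were two-sided, with p-values adjusted by Benjamini-Hochberg over all genes at 0.05, in 20 comparisons, and the code was tested on simulated data. Errors of differences are standard errors, those of levels SDs. Named genes are all members, up to 3 genes of each pathway list by size among those past the threshold, and the 2 genes most like each member over the group means. The members and lists were chosen with earlier results of these data known. Alternatives were covariates for the serials above 45 and for the beta-actin difference, serials up to 45 only, a replicate block, no filter or a limit of 6, renormalization, median centring, array weights, an intensity trend, only the groups compared, the mean of probe sets and leaving out each array. Leaving out serials 53 to 56, or arrays of a beta-actin difference above 2, was added after seeing the data. Figures used matplotlib 3.10.9 in Python 3.11.15, with numpy 2.4.6 and pandas 2.3.3.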

Additional observations from a re-analysis of the deposited data

Results flagged for a closer look

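Over 81 sets of 4 or 5 arrays, 4 held an array that stood far from the others, where chance gives about 1 in 20 sets. In sufficient medium at day 7, replicate 6 was low in Eln (5.72, against 7.38 to 7.84 on the others) and in Bgn (11.61, against 12.18 to 12.29). In sufficient medium at day 21, replicate 2 was low in Lox (13.56, against 13.63 to 13.65) and replicate 1 was high in Bgn (13.07, against 12.29 to 12.49). The low values of Eln and Bgn lie on the same array, which has a serial above 45, as has the array low in Lox. The array high in Bgn has not.

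The effect of excess medium was tested for a difference between day 21 and day 7, and 4 member probe sets passed, beside 24.5% of all genes. It grew by 2.83 in Lum, 0.72 in Emilin1 and 0.58 in Fbln5. Lum passed the filter only through excess medium. The call of Emilin1 was lost without the arrays of a beta-actin difference above 2 (adjusted p = 0.0684). The effect changed by -0.25 in the second probe set of Lox, whose mean in excess medium lay above that in sufficient medium at day 14 and below it at day 21.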

How the results depend on the processing

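Of 64 member differences past the threshold, 49 kept their call in every alternative run that held the gene, 15 lost it in at least 1, and 0 changed sign. All calls of Lum are among the 49, although Lum was tested because it was high in excess medium. It was absent from the run with the limit at 6. Counts of members called moved by over 1.5 times in a few settings. With serials above 45 as a covariate they were 1 for deficient minus sufficient medium at day 14, 2 at day 21, 4 for day 21 minus 14 in sufficient medium and 1 for the change of the deficient effect. With array weights they were 1 for deficient minus sufficient medium at day 14, 4 for day 21 minus 14 in sufficient medium, 1 for the change of the deficient effect and 2 for deficient minus excess at day 7, which was 1 with only the groups compared. For day 21 minus 14 in excess medium the count was 1 on serials up to 45, with the limit at 6 and with only the groups compared. With the limit at 6 Lum, whose highest value was 5.84, did not enter, and in the other settings named Lox lost its call. Leaving out 1 array gave 0 to 1 for deficient minus sufficient at day 14 and 2 to 5 for day 21 minus 14 in deficient medium. The cause of the other moves was not tested. Values that changed sign, none past the threshold, were at day 7 Emilin1 in deficient medium (-0.0165 on serials up to 45, and -0.0165 to 0.13 leaving out 1 array) and Lox (-0.0618 to 0.005 leaving out 1 array). In excess medium at day 7, Lum was -0.0508 on serials up to 45, -0.0339 with the replicate block, -0.028 with array weights, -0.0089 without arrays of a beta-actin difference above 2 and -0.0582 to 0.147 leaving out 1 array. Bgn was 0.0072 after renormalization, 0.0532 after centring, 0.0153 with the beta-actin covariate, 0.0553 without arrays above 2 and -0.151 to 0.0992 leaving out 1 array. Fbln5 ran from -0.152 to 0.0089 and Eln (-0.41 on all arrays) from -0.771 to 0.0179 leaving out 1 array, the latter without excess replicate 6, and without arrays above 2 Emilin1 was 0.0601 and Lox -0.0103. Fmod in excess medium was -0.0376 at day 14 with array weights (-0.019 to 0.136 leaving out 1 array) and 0.0129 at day 21 without serials 53 to 56 (-0.104 to 0.0152 leaving out 1 array). Arrays with the same replicate number did not deviate together (median r of -0.01 over 133 pairs, 39 above 0.1), so the numbers were not taken to pair them, and 9 of 43 arrays correlated best with their own number. With the replicate block, Bgn from day 7 to 21 in sufficient medium (0.37, adjusted p = 0.0587) and Lox from day 7 to 14 in excess medium (0.12, adjusted p = 0.0616) lost the call. The latter was lost in 14 of 23 settings. Signal near background limits Lum in all groups but excess medium at day 21. The mean of Lum in excess medium was 2.04 at day 7 and 3.62 at day 14, below the limit of 4. Dcn is limited throughout, and Emilin1 lay close to the limit at day 7 in each medium.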
